A study of Mus musculus with 2 samples.

Results

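The p53 pathway was followed through 8 genes in ribosome footprints of the neonatal mouse brain. They were Trp53, its inhibitors Mdm2 and Mdm4, and the p53 targets Cdkn1a, Ccng1, Bax, Sesn1 and Trp53inp1. Each was taken by its symbol in the transcript names, which gave 8 of 45578 genes and 41 of 109463 transcripts. All 8 passed the minimum mean count of 10 footprints and entered the tests. The samples were 2 brain libraries of 1 control group, labelled as biological replicates 1 and 2, from mice at postnatal day 5. Both carried the genotype Smn+/-; SMN2tg/0 on an FVB background, so 1 copy of the mouse Smn gene was disrupted and the human SMN2 transgene was present in each library. Whether a library came from 1 brain is not stated, and affected animals were not analysed here. Polysomes were isolated on a sucrose gradient and digested with RNase I, and the protected fragments of 25 to 35 nucleotides were counted per transcript.

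The p53 protein is a transcription factor that is made continuously and destroyed rapidly. Mdm2 is the ubiquitin ligase that marks p53 for the proteasome, and Mdm4 is its relative, which binds the transactivation domain of p53 and pairs with Mdm2. When the inhibitors are held off, p53 accumulates and switches on genes for cell cycle arrest, apoptosis, antioxidant defence and autophagy, and Mdm2 itself, which closes a feedback loop. In the developing brain this pathway takes part in the death of progenitors and young neurons. In models of spinal muscular atrophy, p53 activation in motor neurons has been tied to altered splicing of Mdm2 and Mdm4. These points are background, and footprints do not report the stability of a protein.

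The p53 protein recognises DNA through a 10-base consensus, usually present as a pair. Promoter windows from RefSeq (GRCm38.p6) reach from 250 bases before to 50 bases after an annotated start, and 7 of the 8 genes had a window. The p53 consensus decamer, which reads the same on both strands, was searched with no mismatch. It was found in 6 of these 7 genes and in 6 of their 10 windows. Across the table, 8.36% of 32851 windows and 9.55% of 27025 genes held a match. The matches are printed below with the decamer in capitals and 10 bases on either side, on the strand of the gene.
Cdkn1a (chr17:29090918-29090947, + strand): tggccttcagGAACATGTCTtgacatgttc
Cdkn1a (chr17:29090896-29090925, + strand): tcctgggtggGGACTAGCTTtctggccttc
Mdm2 (chr10:117710925-117710954, - strand): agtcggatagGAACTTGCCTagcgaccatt
Ccng1 (chr11:40755452-40755481, - strand): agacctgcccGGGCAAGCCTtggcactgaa
Bax (chr7:45467080-45467109, - strand): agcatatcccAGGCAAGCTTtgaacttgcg
Sesn1 (chr10:41887256-41887285, + strand): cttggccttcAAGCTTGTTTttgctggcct
Trp53 (chr11:69580274-69580303, + strand): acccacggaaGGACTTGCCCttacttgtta
Distances are to the start of the window that held the match. The first bases of the decamers lay 51 and 73 bases before that start in Cdkn1a, 75 in Trp53, 173 in Sesn1, 185 in Ccng1, 186 in Mdm2 and 201 in Bax. In Cdkn1a and Sesn1, which have 2 windows each, the matches lay in 1 of them. That was the upstream window in Cdkn1a and the downstream window in Sesn1. Neither of the 2 Mdm4 windows held the decamer. A match is a property of these letters. Binding was not measured, and footprints do not bear on it.

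The libraries held 1866831 footprints for replicate 1 and 5261878 for replicate 2, so replicate 2 was 2.82 times as deep. The 8 genes together drew 660 and 1953 of them, or 0.0354% and 0.0371%. The level that a count of 0 allows, taken from 3 counts, was 1.61 CPM for replicate 1 and 0.570 for replicate 2. All 5 markers each of neurons, astrocytes, the oligodendrocyte lineage, microglia and endothelium were present in both libraries, as were those of choroid plexus, red cells and meninges. Neuronal markers summed to 3511 and 2391 CPM in replicates 1 and 2, those of choroid plexus to 629 and 331 CPM, and those of red cells to 2484 and 1702 CPM. Single markers did not all follow these sums: Rbfox3, Folr1 and Alas2 were higher in replicate 2, and the choroid plexus markers without Ttr summed to 47.1 and 54.5 CPM. The 5 markers of proliferating cells were all higher in replicate 2, with sums of 107 and 179 CPM. Among them Birc5 was nearly equal, at 11.8 and 12.4 CPM. All these marker levels are scaled to library totals. The 4 liver markers summed to 0 and 2 footprints. Of the 156 and 318 footprints on 5 muscle markers, Acta1, which is nearly identical to other actins over long stretches, held 140 and 264. In whole brain, fewer cells of a type and less RNA per cell cannot be told apart.

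The p53 targets Cdkn1a and Bax had the highest footprint density of the 8 genes, Trp53 followed, and both inhibitors lay lower. Density is the CPM value per kilobase of the longest coding sequence, where CPM is the count scaled to the library total, which allows genes of different length to be compared. Cdkn1a, which encodes the cyclin-dependent kinase inhibitor p21, had a density of 216 CPM per kilobase in replicate 1 (exact Poisson 95% interval 187 to 249) and 171 in replicate 2 (155 to 188). Its mean of 194 ± 32.1 (SD, n = 2) lay at percentile 92.8 of the 13317 tested genes with a coding sequence. Bax, the pore-forming executor of mitochondrial apoptosis, had a density of 153 (130 to 178) and 102 (91.05 to 114), with a mean of 127 ± 35.8 at percentile 87.9. Trp53 had a density of 55.3 (45.9 to 66.02) and 68.5 (62.2 to 75.4), with a mean of 61.9 ± 9.39 at percentile 75.4. These 3 genes stood in the same order in both replicates, and their ranges did not overlap.

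**Figure D1:**
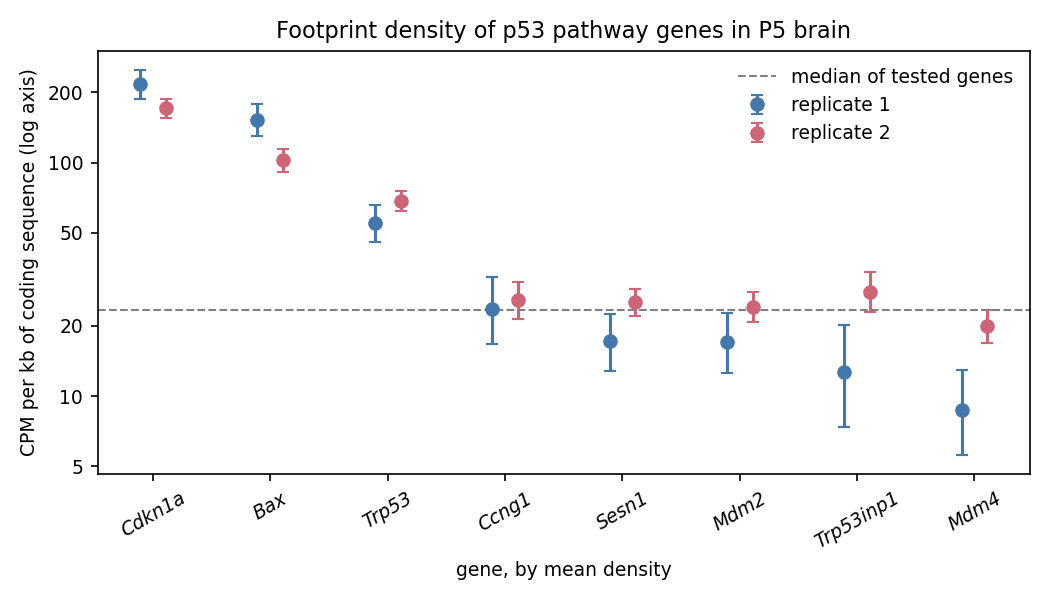
Footprint density in CPM per kilobase of coding sequence (log axis) for each of the 8 genes in replicate 1 and replicate 2, with exact Poisson 95% intervals; the dashed line is the median of the tested genes, 23.5. Cdkn1a, Bax and Trp53 sit apart above the line in both replicates, and the other 5 genes lie between 8.73 and 28.0.

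The other 5 genes lay between 8.73 and 28.0 in either replicate, around the median of all tested genes, 23.5. Ccng1, an early p53 target that encodes the cyclin G1 protein, had a density of 23.6 in replicate 1 and 25.8 in replicate 2. Its mean of 24.7 ± 1.53 (SD, n = 2) had the smallest spread of the 8. Sesn1, a sestrin that limits oxidative stress and restrains mTORC1, had 17.1 and 25.2, with a mean of 21.2 ± 5.73. Mdm2 had 17.1 and 24.2, with a mean of 20.7 ± 4.98. Trp53inp1, a stress protein that acts in p53-dependent death and in autophagy, had 12.6 and 28.0, with a mean of 20.3 ± 10.8. Mdm4 had 8.73 and 19.9, with a mean of 14.3 ± 7.88. The replicate ranges overlapped in 9 of the 10 pairs of these 5 genes, all neighbours among them, and Ccng1 lay above Mdm4 without overlap. This closeness rests on footprints of all classes of transcript. With coding transcripts alone the mean densities were 21.2 for Sesn1, 20.4 for Ccng1, 7.80 for Mdm2, 7.69 for Mdm4 and 6.11 for Trp53inp1. Mdm2, Mdm4 and Trp53inp1 then lay below Sesn1 and Ccng1 on the means. From Cdkn1a to Mdm4 the mean density spanned 13.6-fold, with 24.8-fold in replicate 1 and 8.61-fold in replicate 2. Taking transcript length in place of coding length exchanged Cdkn1a and Bax, at 48.7 and 84.9, because the longest Cdkn1a transcript has a 3′ untranslated region of 1329 nucleotides. The median of the 8 genes, 22.9, lay near that of all tested genes.

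Set against Trp53 within each library, both inhibitors carried fewer footprints per kilobase. The density of Mdm2 was 0.310 times that of Trp53 in replicate 1 (exact 95% interval 0.216 to 0.437) and 0.353 times in replicate 2 (0.295 to 0.420), so the replicates overlapped. The density of Mdm4 was 0.158 times that of Trp53 in replicate 1 (0.0974 to 0.246) and 0.290 times in replicate 2 (0.239 to 0.349), and the intervals met at their ends. Mdm2 exceeded Mdm4 by 1.96-fold in replicate 1 (1.18 to 3.36) and by 1.22-fold in replicate 2 (0.978 to 1.52), where the interval included equality. These ratios rest on all classes of transcript. From coding transcripts alone the density of Mdm2 was 0.144 and 0.165 times that of Trp53 in replicates 1 and 2, and that of Mdm4 0.119 and 0.181 times. Between the inhibitors the ratio was then 1.20 (0.572 to 2.56) and 0.911 (0.650 to 1.28), so their order was lost. From all classes of transcript, Cdkn1a exceeded Trp53 by 3.92-fold (3.11 to 4.96) and 2.50-fold (2.18 to 2.86) in replicates 1 and 2. On the same basis, Bax exceeded Trp53 by 2.76-fold (2.17 to 3.52) and 1.49-fold (1.28 to 1.73). With coding transcripts alone these ratios were 4.74 and 3.11 for Cdkn1a, and 3.34 and 1.86 for Bax. For both targets the intervals of the replicates did not overlap, and the ratio was higher in replicate 1.

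The replicates differed in 4 of the 8 genes beyond counting noise, with Mdm4 and Trp53inp1 higher in replicate 2 and Cdkn1a and Bax lower. Over all 16427 genes whose mean count reached 10, 17.4% were called by the exact binomial test, 5.95% higher and 11.5% lower in replicate 2. Calls are at a Benjamini-Hochberg adjusted p under 0.05 over all these genes. Library sizes were scaled by TMM, the trimmed mean of M values, which lowered every log2 ratio by 0.13 against library totals. Of the called genes 34.2% were higher in replicate 2 with TMM and 60.7% with library totals. The test compares 2 libraries of 1 group and covers counting error alone. A difference in this test is a difference between the libraries, not an effect of a condition. edgeR's exact test, whose common dispersion is taken from the same 2 libraries, called none of the 8 and 11 of all genes.

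Mdm4 had 24 footprints in replicate 1 and 154 in replicate 2, or 12.9 CPM (Clopper-Pearson 95% interval 8.24 to 19.1) and 29.3 CPM (24.8 to 34.3). The intervals did not overlap. The log2 ratio, replicate 2 over replicate 1, was 1.06 (exact 95% interval 0.43 to 1.75; exact binomial test, adjusted p = 0.00357). It lay at percentile 96.5 of all tested genes. The summed markers of proliferating cells, the oligodendrocyte lineage and microglia, scaled to library totals, were also higher in replicate 2. Single markers were higher in 5 of 5, 3 of 5 and 3 of 5. Without Mbp the oligodendrocyte lineage sum was nearly equal, at 553 and 551 CPM. The sums of neurons, astrocytes, endothelium, choroid plexus, red cells, meninges and muscle were lower. The part of any of these sets in the Mdm4 difference was not tested. With the protein-coding transcripts alone the log2 ratio of Mdm4 was 0.77 and the call was lost (exact binomial test, adjusted p = 0.219).

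Trp53inp1, the least abundant of the 8 genes, had 17 and 106 footprints. Its level was 9.11 CPM (5.305 to 14.6) in the first library and 20.1 CPM (16.5 to 24.4) in the other, with no overlap of the intervals. Its log2 ratio was 1.02 (0.27 to 1.85; exact binomial test, adjusted p = 0.0298). Across all genes, log2 ratios fell with the footprints per nucleotide of the longest transcript. That measure differs from the density per coding length used above, and this fall is called the density trend below. With the trend removed, the call of Trp53inp1 was lost at a log2 ratio of 0.95 (exact binomial test, adjusted p = 0.0607). The call was also lost with the coding transcript alone, at a log2 ratio of 1.54 (exact binomial test, adjusted p = 0.147).

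Cdkn1a had 194 and 432 footprints. Its level was 104 CPM (89.8 to 119.6) against 82.1 CPM (74.5 to 90.2), so the intervals met at their ends. Its log2 ratio was -0.47 (-0.71 to -0.21; exact binomial test, adjusted p = 0.00268). Bax had 165 and 311 footprints. It stood at 88.4 CPM (75.4 to 103) against 59.1 CPM (52.7 to 66.1), and the intervals did not overlap. Its log2 ratio was -0.71 (-0.98 to -0.43), and its adjusted p was the lowest of the 8 (exact binomial test, adjusted p = 1.9e-05). With the most abundant transcript alone, and so fewer footprints, Cdkn1a kept a log2 ratio of -0.48 and was not called (exact binomial test, adjusted p = 0.133). Library totals in place of TMM left both ratios below 0, at -0.34 and -0.58. The summed neuronal, choroid plexus and red cell markers, in CPM, were also lower in replicate 2. Single markers were lower in 4 of 5, 3 of 4 and 4 of 5, and without Ttr the choroid plexus sum was higher. The astrocyte, endothelium, meninges and muscle sums were lower as well. Those of the oligodendrocyte lineage, microglia and proliferating cells were higher. The part of any of these sets in the differences of Cdkn1a and Bax was not tested.

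The other 4 genes were not called. Trp53 had 121 footprints in replicate 1 and 423 in replicate 2, or 64.8 and 80.4 CPM, at a log2 ratio of 0.18 (-0.11 to 0.49; exact binomial test, adjusted p = 0.487). Mdm2 had 47 and 187 footprints, or 25.2 and 35.5 CPM, at a log2 ratio of 0.37 (-0.10 to 0.86). Sesn1 had 53 and 220, or 28.4 and 41.8 CPM, at 0.43 (-0.01 to 0.89). Ccng1 had 39 and 120, or 20.9 and 22.8 CPM, at 0.00 (-0.53 to 0.56). For all 4 the CPM intervals of the replicates overlapped. With 39 to 121 footprints in replicate 1, the intervals still allowed differences of 1.40-fold for Trp53 and 1.82-fold for Mdm2. The median log2 ratio of the 8 genes was 0.28, beside 0.01 for all tested genes.

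**Figure D2:**
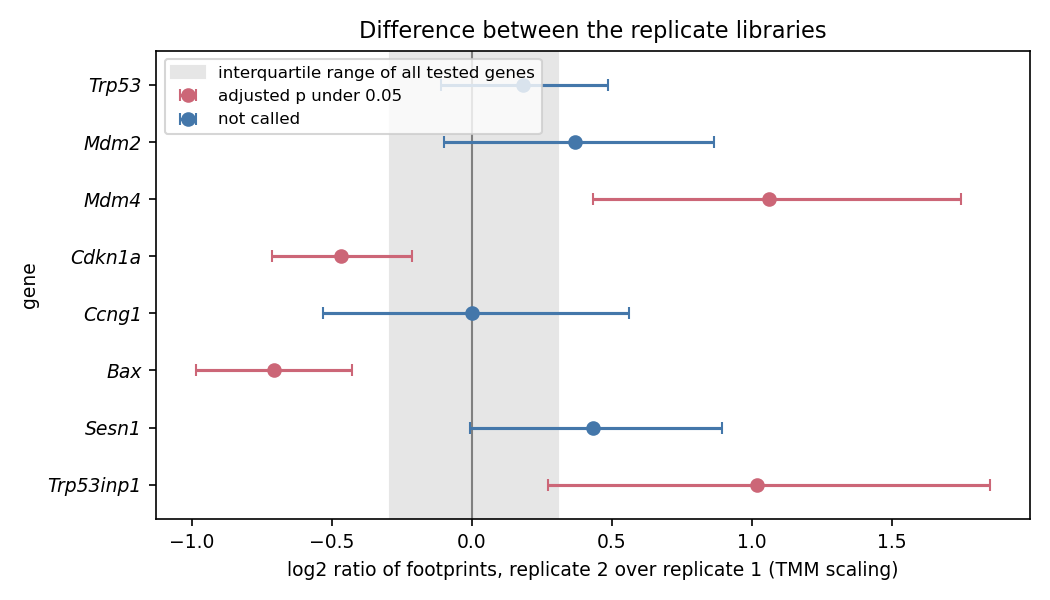
Log2 ratio of footprints, replicate 2 over replicate 1 with TMM scaling (horizontal axis), for each of the 8 genes with its exact 95% interval; red points were called by the exact binomial test, and the grey band is the interquartile range of all tested genes, -0.29 to 0.31. Mdm4 and Trp53inp1 lie to the right at 1.06 and 1.02, and Cdkn1a and Bax to the left at -0.47 and -0.71.

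The share of footprints on coding transcripts differed among the 5 genes that have other annotated classes. Cdkn1a, Bax and Sesn1 have coding transcripts alone in the annotation used, so their share was fixed at 100%. Trp53 placed 82.6% of its footprints on coding transcripts in replicate 1 and 80.1% in replicate 2 (mean 81.4% ± 1.77, SD, n = 2), and Ccng1 84.6% and 80.8% (82.7% ± 2.67). Pooled over the footprints of all genes, 76.3% and 74.8% lay on coding transcripts (75.5% ± 1.09). This pooled share gives abundant genes more weight and includes genes with coding transcripts alone and genes with none. In Mdm4 the share was 62.5% and 50.0% (56.2% ± 8.84). In Mdm2 it was 38.3% and 37.4% (37.9% ± 0.611), below the pooled share in both replicates. A share per gene over genes with several classes is not given, so whether Mdm2 is low among such genes was not tested. It was lowest in Trp53inp1, at 23.5% and 33.02% (28.3% ± 6.71), whose other 3 transcripts are annotated as processed transcripts. Exons are shared between these classes and the coding transcripts, so a footprint counted on them can come from the coding message.

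**Figure D3:**
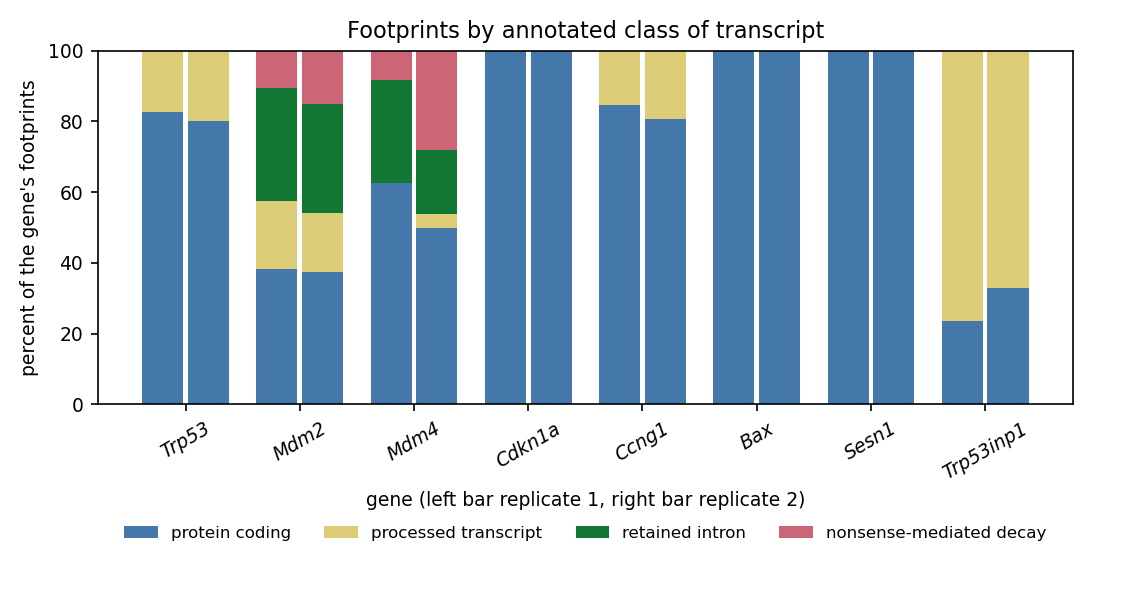
Percent of each gene's footprints on the annotated classes of transcript (stacked bars, left bar replicate 1 and right bar replicate 2). Cdkn1a, Bax and Sesn1 are coding alone, while Mdm2 has 38.3% and 37.4% of its footprints on coding transcripts and Trp53inp1 23.5% and 33.0%.

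No gene of the 5 with several classes was called for its coding share between the replicates. Fisher's exact test over the 7934 genes that could be tested called 0.0756% of them (6 genes), with 402 at an unadjusted p under 0.05. The unadjusted p of the 5 genes ran from 0.280 for Mdm4 to 1 for Mdm2, and every adjusted p was 1 in Fisher's exact test. With 24 Mdm4 footprints in replicate 1, the share outside coding transcripts had a 95% interval of 18.8% to 59.4% there, so smaller shifts were not detectable at this depth.

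Transcripts annotated as targets of nonsense-mediated decay, the pathway that degrades messages with an early stop, were present for both inhibitors. Mdm4-002 and Mdm4-004 have coding sequences of 387 and 426 nucleotides, against 1470 for Mdm4-001. They had 1 footprint each in replicate 1 and 21 and 22 in replicate 2. Together they made up 8.33% of the Mdm4 footprints in replicate 1 (1.03 to 27.0, Clopper-Pearson) and 27.9% in replicate 2 (21.0 to 35.7), and the intervals overlapped. Against coding footprints alone the decay targets had 2 beside 15 in replicate 1 and 43 beside 77 in replicate 2, with an unadjusted p of 0.0557 and an adjusted p of 1 in Fisher's exact test. That test called 0 of 2557 genes (0%), with 110 at an unadjusted p under 0.05. Mdm2-003, the decay target of Mdm2 with a coding sequence of 489 nucleotides, had 5 and 28 footprints, or 10.6% (3.55 to 23.1) and 15.0% (10.2 to 20.9) of the gene.

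Among the 9 Mdm2 transcripts, the 2 coding ones did not stand out. Mdm2-001, with 489 codons, had 10 and 39 footprints, and Mdm2-002, with 440 codons, had 8 and 31. Mdm2-004, a retained-intron transcript of 3007 nucleotides with no annotated coding sequence, had 10 and 41. The counts of Mdm2-001 and Mdm2-004 were thus nearly equal in each replicate. How fragments matching several transcripts were counted is not given, so these counts do not place ribosomes on Mdm2-004. In Mdm4, the full-length coding transcripts Mdm4-001, Mdm4-003 and Mdm4-005 had 6, 4 and 3 footprints in replicate 1 and 22, 20 and 20 in replicate 2. Mdm4-014 had none in either replicate. Of the other Mdm2 transcripts, the processed transcript Mdm2-006 had 3 and 17.

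**Figure D4:**
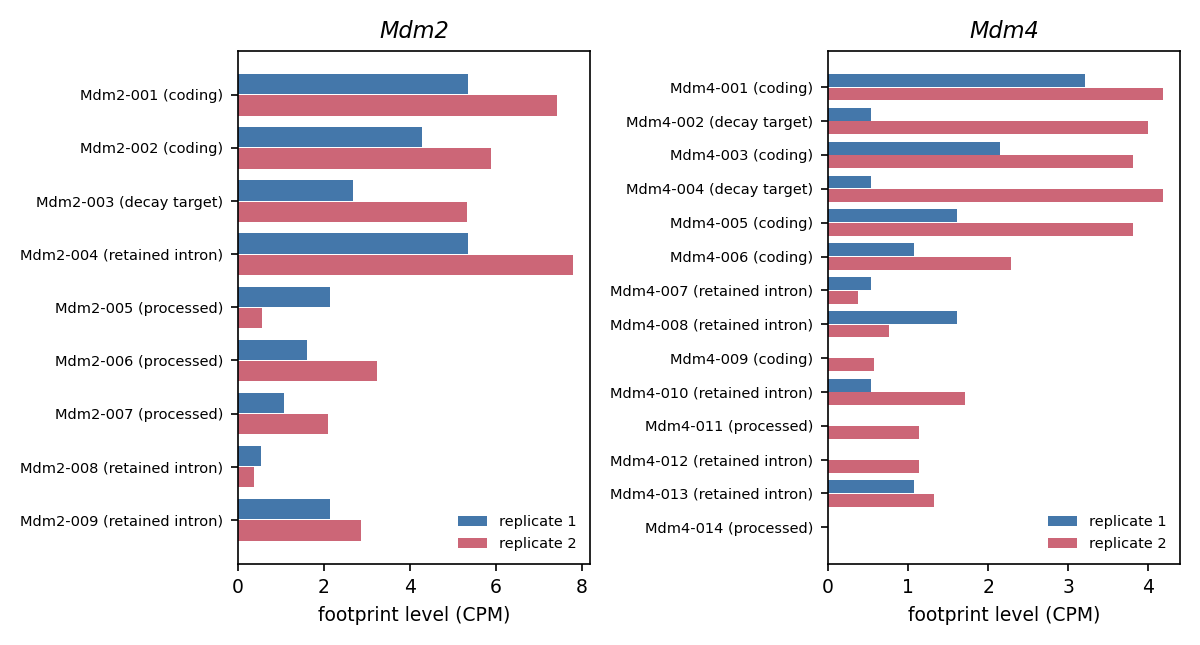
Footprint level (CPM, horizontal axis) on each annotated transcript of Mdm2 (left) and Mdm4 (right) in replicate 1 and replicate 2, with the annotated class in brackets. In Mdm4 the decay targets Mdm4-002 and Mdm4-004 stand at 0.536 CPM in replicate 1 and at 3.99 and 4.18 CPM in replicate 2, near Mdm4-001, Mdm4-003 and Mdm4-005 of replicate 2, at 4.18, 3.80 and 3.80 CPM.

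Of the 41 transcripts, 26 reached a mean count of 10, and 1 was called by the exact binomial test, Bax-201, the only transcript of its gene. Over all 43655 transcripts tested the rate was 5.08%. An unadjusted p under 0.05 was found for 7 of the 26, and for 14.9% of all transcripts tested. The 3 transcripts of Cdkn1a have coding sequences of equal length, 480 nucleotides, or 159 codons, and differ in their untranslated ends. They had 78, 54 and 62 footprints in replicate 1 and 164, 135 and 133 in replicate 2, and all 3 were lower in replicate 2 after scaling, at log2 ratios of -0.55, -0.30 and -0.52. Cdkn1a-001 held 40.2% and 37.96% of the gene in replicates 1 and 2.

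Trp53 was spread over 4 coding transcripts in pairs that differ in the length of the coding sequence. The longer pair, Trp53-001 and Trp53-201 with 387 and 390 codons, took 47.1% of the gene in replicate 1 (95% interval 37.97 to 56.4) and 40.7% in replicate 2 (35.9 to 45.5). The shorter pair, Trp53-002 and Trp53-202 with 378 and 381 codons, took 35.5% (27.05 to 44.8) and 39.5% (34.8 to 44.3). The intervals of the pairs overlapped in both replicates. Sesn1-001, with 551 codons, had 21 and 113 footprints, and Sesn1-002, with 492 codons, had 32 and 107. The share of Sesn1-001 was 39.6% (26.5 to 54.0) in replicate 1 and 51.4% (44.6 to 58.1) in replicate 2, within counting error of each other. The processed transcript Trp53-003 had 16 and 71 footprints. In Ccng1 the coding Ccng1-001 had 33 and 97, and the processed transcript Ccng1-002 had 6 and 23. In Trp53inp1 the coding Trp53inp1-001 had 4 and 35, close to the processed transcript Trp53inp1-002 at 6 and 37, and Trp53inp1-003 had 5 and 17. The annotated pseudogenes Mdm4-ps and Trp53-ps had 3 and 10 and 0 and 3 footprints in replicates 1 and 2.

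A wider list of 68 genes of the pathway gave the setting, of which 59 reached the count minimum. Between the replicates 8 of the 59 were called, 2 higher and 6 lower in replicate 2, or 13.6% beside 17.4% of all genes, and the median log2 ratio of the 59 was 0.05. Upstream kinases and cofactors had 1 of 12 called, the acetyltransferase gene Kat5, at a log2 ratio of -0.60. Other regulators had 1 of 7 called, Usp7, a deubiquitinase that acts on Mdm2 and p53, at 0.77, with counts of 138 and 723. Cell cycle and repair targets had 2 of 12 called, Plk2 at -0.42 and Ccng2 at 0.52. Apoptosis genes had 2 of 13 called, both lower in replicate 2. These were Mcl1, which holds Bax and Bak1 in check, at -0.80, and Perp at -0.98. Metabolic and other targets had 2 of 14 called, the mTORC1 inhibitor gene Ddit4 at -0.66 and Phlda3 at -0.81. With library totals in place of TMM, Perp lost its call, Rpl5, Igfbp3 and Rfwd2 gained one, and the number was 10. With the density trend removed, Ccng2 kept a log2 ratio of 0.49 and was not called (exact binomial test, adjusted p = 0.0663). Rpl5, Rpl11 and Npm1, whose products bind Mdm2, were then called higher in replicate 2, at log2 ratios of 0.38, 0.38 and 0.35 after the trend was taken off against 0.15, -0.06 and 0.01 before, and the number was 10.

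The densities of the 59 tested genes of this list reached from 1.12 to 535, with a median of 21.0, and the median over all 68 was 17.8. Among the regulators the highest was that of Rpl11, a ribosomal protein that can bind Mdm2, at 535 ± 16.6 (SD, n = 2). Cycs, the cytochrome c gene, led the apoptosis genes at 276 ± 16.3, Ddit4 the metabolic targets on the mean at 180.3 ± 47.0 (Trp53i11 had 176 ± 9.82 and exceeded Ddit4 in replicate 2), Plk2 the cell cycle targets at 84.4 ± 12.3, and the p53-binding protein gene Trp53bp1 the upstream cofactors at 48.9 ± 3.74. All 12 upstream kinases and cofactors were tested and had a median density of 11.3, and the 18 apoptosis genes had 23.1, or 48.3 over the 13 that reached the count minimum. The p53 family member Trp63 had no footprint in either library, which allows up to 1.61 and 0.570 CPM, and Trp73 had 9 and 51. Cdkn2a, the source of the Mdm2 inhibitor ARF, had 0 and 2 footprints, and the death receptor gene Fas had 1 and 1.

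**Figure D5:**
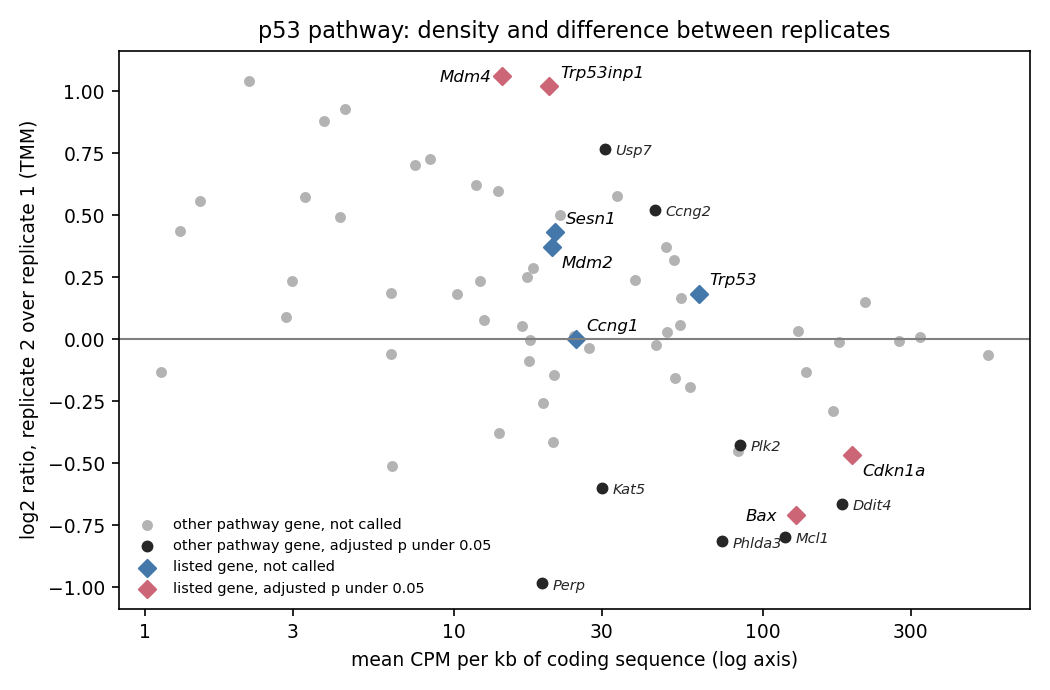
Mean density in CPM per kilobase of coding sequence (log axis) against the log2 ratio of replicate 2 over replicate 1 with TMM scaling, for the 8 listed genes (diamonds) and 59 other genes of the pathway (circles). The called genes of high density, such as Cdkn1a, Bax and Ddit4, lie below 0, and Mdm4 and Trp53inp1 lie at the top.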

How the data were processed

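Ribosome footprints of polysomes were measured in 2 mouse brain libraries of 1 group. The authors deposited whole-number counts per transcript, not normalized, with annotated lengths per the file headers. Trimmomatic 0.36, Bowtie2 2.2.6, SAMtools and GRCm38.p4 are named in the submitters' processing notes, with no role given. How fragments with several matches, strand and duplicates were treated is not given in the sources used here, so shares of single transcripts are uncertain.

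Counts were summed per gene and by class of transcript. TMM factors came from edgeR 4.0.16 on genes whose mean count reached 10. With no contrast in the design, edgeR's quasi-likelihood test was not applicable. Replicates were compared by two-sided exact binomial tests and class shares by two-sided Fisher's exact tests (scipy 1.17.1), adjusted by the Benjamini-Hochberg method over all genes or transcripts tested, and the steps were tested on simulated data. Intervals and floors (3 counts) cover counting error only, since PCR copies are not independent molecules. P-values measure only the difference between these libraries.

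The genes, the wider list and the alternatives were chosen with earlier results of these data known. All 8 genes were named, and their transcripts whose mean count reached 10. The wider list leaves out 1 gene that is not reported here. Of that list, the genes called and the gene of highest density in each role were named. Trp63, Cdkn2a, Fas, Rpl5, Rpl11, Npm1, Igfbp3, Rfwd2, Trp53i11 and the transcripts below 10 were named after their values were seen. No gene was named for a similar pattern, as 2 samples of 1 group give none. Promoter sequences and their coordinates are from RefSeq, GRCm38.p6.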

Additional observations from a re-analysis of the deposited data

How the results depend on the processing

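The number of the 8 genes called was 4 with TMM and stayed at 4 with library totals, DESeq2 1.42.0 size factors and no filter on low counts, and was 3 with the density trend removed. It was 2 at a mean count of at least 100, where Mdm4 and Trp53inp1 are not tested, 2 with coding transcripts alone, 1 with the transcript of highest mean count and 0 with edgeR's exact test, where Mdm4 and Trp53inp1 had an unadjusted p of 0.0259 and 0.0464. That last test takes its dispersion from the libraries it compares. Over all genes it called 11 in place of 2861, and the highest transcript gave 1444. The share of called genes higher in replicate 2 was 34.2% with TMM, 60.7% with library totals and 41.9% with DESeq2 size factors. No called gene of the 8 changed direction. Uncalled Ccng1, at 0.00, had a log2 ratio of -0.036 with coding transcripts and -0.060 with the trend removed, and Trp53 -0.010 with its highest transcript. Genes with a class share called numbered 6, with 0 for decay targets and 3 for retained introns, where fewer genes were tested; the number of transcripts called stayed within 1.5 times of 2217. The median density of the 8 genes, 22.9, was 10.4 per kilobase of the longest coding transcript, and 26.9 and 20.4 without replicate 1 and without replicate 2. With coding transcripts alone the densities of Mdm2 and Trp53inp1 were 7.80 and 6.11. No paired analysis was possible because the series has 1 group. Depth limits replicate 1 most, where Mdm4 and Trp53inp1 had 24 and 17 footprints.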

Other observations

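Several of the 8 genes have a close relative in the wider list, and the pairs differed in footprint density (CPM per kilobase of coding sequence); the pairs were chosen after the values were seen. Trp53inp2, a relative of Trp53inp1 that also acts in autophagy, had a density of 178 in replicate 1 and 159 in replicate 2, which was 8.28 times the mean of Trp53inp1. Sesn3 had 59.04 and 56.4, or 2.72 times the mean of Sesn1, while Sesn2 had 15.2 and 12.8, below Sesn1 at 17.1 and 25.2. Bax, at 153 and 102, exceeded the other pore-forming effector gene Bak1, at 50.2 and 57.01, by 2.38-fold on the means. Ccng2 had 34.7 and 54.4, or 1.80 times the mean of Ccng1. Trp73 had 2.51 and 5.06, and Trp53 exceeded it by 16.4-fold on the means. In each of these pairs the ranges of the replicates did not overlap.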
